A study of Mus musculus with 4 samples.

Results

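The genes described here come from the enzyme families of cyclic AMP signalling and from the transcription factors at its end. The enzymes are the numbered adenylyl cyclases (Adcy), the lettered phosphodiesterases (Pde), and the catalytic and regulatory subunits of protein kinase A (Prkac, Prkar). The factors are the CREB factors Creb1, Creb3 and Creb5, with the coactivators Crtc1, Crtc2 and Crtc3. All these genes were chosen by gene symbol in the GENCODE vM21 basic annotation of mm10. They number 44 of 21755 protein-coding genes on the autosomes and the X chromosome. The symbol rule uses no measured value, but it was set with earlier results of these data known. By family name they are 10 cyclases, 22 phosphodiesterases, 2 catalytic and 4 regulatory PKA subunits, 3 CREB factors and 3 coactivators. The families also hold genes that act on cGMP, such as Pde5a and Pde9a, and the carrier gene Pde6d. All 44 are called cAMP pathway genes in the figures.

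H3K27ac, the acetyl mark on lysine 27 of histone H3 that active promoters and enhancers carry, was mapped by ChIP-seq in frozen left cerebral cortex of adult female B6CASTF1/J mice aged 2 months, the first-generation offspring of C57BL/6J and CAST/EiJ parents. The 4 libraries form a single group, with no treatment named in the labels. They come from pool I and pool J, each a mix of 4 biosamples and each sequenced as 2 technical libraries that share an alignment. Values therefore exist for each pool and not for each mouse, and no contrast of conditions was tested.

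Cyclic AMP is made from ATP by adenylyl cyclases, most of which sit in the cell membrane and answer to G proteins, and it is broken down by phosphodiesterases. When it binds the regulatory subunits of PKA, the catalytic subunits are released, enter the nucleus and phosphorylate CREB, which binds the cAMP response element (CRE). In the cortex this pathway carries the signals of noradrenaline, dopamine and other transmitters, and CREB is known for its part in activity-dependent transcription and long-term memory.

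The promoter sequences below show the members whose DNA holds the letters of the CRE or stands out against its acetylation. They are RefSeq windows of GRCm38.p6, the mm10 assembly, from 250 bases before to 50 after an annotated start, all on the plus strand and written 5′ to 3′. Capitals mark the half-site TGACG on either strand (CGTCA in the printed strand). The full element TGACGTCA holds a half-site on each strand, and these overlap.
Prkar1a, chr11:109650699-109650998, under a peak of signal 19: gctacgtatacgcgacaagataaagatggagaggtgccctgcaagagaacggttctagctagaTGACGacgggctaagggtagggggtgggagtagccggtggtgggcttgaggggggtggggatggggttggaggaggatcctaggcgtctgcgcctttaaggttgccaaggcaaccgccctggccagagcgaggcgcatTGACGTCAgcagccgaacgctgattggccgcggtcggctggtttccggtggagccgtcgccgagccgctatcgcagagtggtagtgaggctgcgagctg
Creb5 first start, chr6:53287053-53287352, under no peak: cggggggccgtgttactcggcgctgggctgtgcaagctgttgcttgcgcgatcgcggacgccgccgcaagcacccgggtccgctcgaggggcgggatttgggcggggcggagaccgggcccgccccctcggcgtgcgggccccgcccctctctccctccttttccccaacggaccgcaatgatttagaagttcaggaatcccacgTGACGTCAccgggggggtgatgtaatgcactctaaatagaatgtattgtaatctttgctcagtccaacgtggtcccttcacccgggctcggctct
Creb5 last start, chr6:53573124-53573423, under a peak of signal 5.76: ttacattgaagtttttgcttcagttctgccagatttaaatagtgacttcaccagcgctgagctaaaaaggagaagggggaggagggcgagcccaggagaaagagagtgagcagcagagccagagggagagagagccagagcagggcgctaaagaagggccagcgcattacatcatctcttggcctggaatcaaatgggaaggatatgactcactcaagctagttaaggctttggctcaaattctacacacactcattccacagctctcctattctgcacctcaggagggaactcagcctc
Prkaca first start, chr8:83972728-83973027, under a peak of signal 6.16: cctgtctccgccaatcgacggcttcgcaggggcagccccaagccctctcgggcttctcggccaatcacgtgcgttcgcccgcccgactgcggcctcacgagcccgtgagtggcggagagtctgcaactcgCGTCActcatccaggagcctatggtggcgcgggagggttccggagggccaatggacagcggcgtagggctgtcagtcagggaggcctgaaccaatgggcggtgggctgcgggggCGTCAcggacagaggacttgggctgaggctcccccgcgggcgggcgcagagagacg
Prkaca second start, chr8:83976633-83976932, under no peak: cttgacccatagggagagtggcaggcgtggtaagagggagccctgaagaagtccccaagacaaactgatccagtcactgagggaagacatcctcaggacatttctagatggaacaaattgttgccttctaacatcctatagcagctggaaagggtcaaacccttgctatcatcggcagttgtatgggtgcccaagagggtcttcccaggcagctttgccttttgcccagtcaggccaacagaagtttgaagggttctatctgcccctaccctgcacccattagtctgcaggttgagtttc
Creb1, chr1:64532554-64532853, under a peak of signal 18.9: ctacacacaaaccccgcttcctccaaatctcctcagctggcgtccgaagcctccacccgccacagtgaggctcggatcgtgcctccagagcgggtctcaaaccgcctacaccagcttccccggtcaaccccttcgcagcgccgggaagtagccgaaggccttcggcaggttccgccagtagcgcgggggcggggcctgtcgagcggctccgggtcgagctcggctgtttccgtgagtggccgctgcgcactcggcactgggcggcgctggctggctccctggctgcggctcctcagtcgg

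The RefSeq table held 73 windows for 35 of the 44 genes, each identical to the genome sequence at its coordinates. Adcy6, Adcy8, Crtc2, Pde3a, Pde3b, Pde6a, Pde6c, Pde7a and Pde9a were not in it. The full CRE occurred in 3 windows of 2 genes, Prkar1a and Creb5, which is 4.11% of the members' windows, against 2.32% of the 20061 windows of all coding genes. In Prkar1a, 2 overlapping windows hold the same element. The printed window also holds a separate half-site, so it counts 3 half-sites, and 3 or more were found in 1.42% of coding windows. The Creb5 window with the element lay under no peak, while the window of the last Creb5 start, under a peak, has no half-site.

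A half-site of any kind lay in 16 windows of 14 members, 21.9% of windows, against 24.3% of coding windows. Creb1, the founding CREB factor, has none in the window shown, and has 2 GC boxes (GGGCGG, either strand). GC boxes lay in 42.5% of the members' windows, against 48.0% of coding windows, and the letters TATAA, also on either strand, in 8.22%, against 21.1%. Of the members' windows 69.9% lay under a peak, against 54.8% of coding windows, and the letters differ between windows with and without a peak. Among the 51 member windows under a peak, 12 held a half-site, against 33.0% of coding windows under a peak. GC boxes lay in 25 of the 51, against 66.7%, the letters TATAA in 3, against 11.4%, and the full CRE in 2, against 3.45%. The observed over expected ratio of CpG had a median of 0.70 in the members' windows under a peak and 0.21 in those without, against 0.78 and 0.24 over coding windows. The pair of Prkaca windows follows this split, with a ratio of 0.86 at the acetylated start and 0.10 at the other. The Creb5 windows run opposite to it, with 0.99 at the first start, whose window lies under no peak, and 0.22 at the last start, whose window does. A weak replicated peak of signal 2.67, in neither pool list, lies just downstream of the first Creb5 window and within 1000 bp of the start. These letters describe the windows, and no binding was measured.

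A promoter peak, meaning a peak of the replicated list that overlaps any annotated start or the 1000 bp to each side of it, was found at 35 of the 44 members, against 58.5% of coding genes. The members marked were 7 of 10 cyclases, 16 of 22 phosphodiesterases and every PKA subunit, CREB factor and coactivator. The 9 without such a peak were Adcy4, Adcy7, Adcy10, Pde1c, Pde4c, Pde6a, Pde6b, Pde6c and Pde11a. In the pool I list the count was 35 members, against 58.2% of coding genes, in the pool J list 34, against 55.2%, and in both pool lists 34, against 54.7%. At a −log10 q of at least 5 it was 33, against 54.8%. In tissue made of many cell types, a peak found in fewer cells and a weaker peak in all cells cannot be told apart, and absence from a list does not show absence of acetylation.

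**Figure D1:**
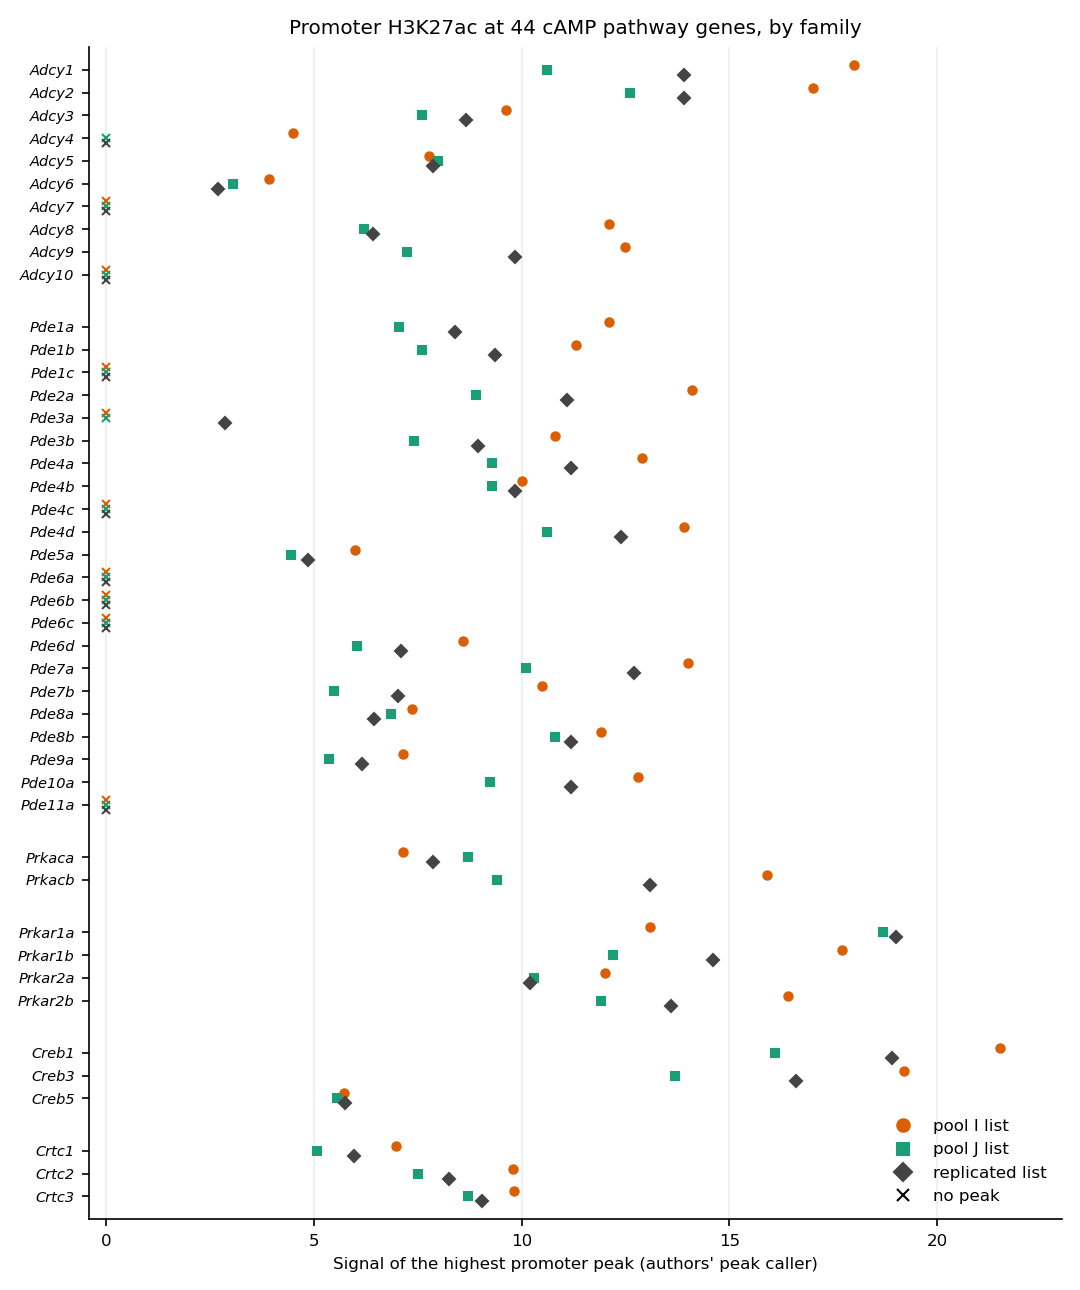
Signal of the highest promoter peak of each of the 44 genes (horizontal axis, value of the authors' peak caller) in the pool I list (circles), the pool J list (squares) and the replicated list (diamonds), with genes grouped from cyclases at the top to coactivators at the bottom. Pool values are those at the replicated peak, except for Adcy4, which had a peak in the pool I list alone, and crosses at 0 mark lists with no peak. Prkar1a and Creb1 reach 19 and 18.9 in the replicated list, and Prkar1a is the member with the lowest pool I signal relative to pool J.

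Signal is the strength that the authors' peak caller gave each peak, and no error can be set on it, since each pool gave a single list. Over the 35 marked members its median was 9.36, against 8.86 over coding genes with a promoter peak. The median percentile of the members among those coding genes was 54.1, and 20 of 35 lay above the 50th. The top decile held 3 members, Prkar1a, Creb1 and Creb3, and the lowest 25% held 4, Adcy6, Pde3a, Pde5a and Creb5. Families differed in their medians, with 16.6 for the CREB factors, 14.1 for the regulatory subunits, 10.5 for the catalytic subunits, 9.16 for the phosphodiesterases, 8.66 for the cyclases and 8.25 for the coactivators. The CREB factors also spanned the widest range, with Creb5 at 5.76 and Creb1 at 18.9.

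Among the cyclases, Adcy1 and Adcy2 shared the highest promoter signal in the replicated list under the basic annotation. Adcy1, a calcium- and calmodulin-stimulated cyclase of neurons, had 18 in pool I and 10.6 in pool J, with 13.9 in the replicated list. Adcy2, which G protein beta-gamma subunits stimulate, had 17.0 in pool I and 12.6 in pool J, also with 13.9 in the replicated list. Both lay at the 82.8th percentile. The Adcy2 peak also lies within 1000 bp of starts of the non-coding genes Gm35161 and Gm48593, so its signal need not be that of Adcy2 alone.

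Adcy8, the other cyclase that calcium and calmodulin stimulate strongly, had a peak that differed between the lists in height and width. Its signal was 12.1 in pool I (percentile 59.9) and 6.22 in pool J (percentile 32.4), with 6.42 in the replicated list (percentile 29.0). The peak spanned 3541 bp in the replicated list and 3616 bp in pool I, but 792 bp in pool J. In the replicated list it was the widest of the members' highest promoter peaks. Its ratio of pool I to pool J signal, 1.94, was the highest among the members.

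The remaining marked cyclases lay in the middle or at the low end of the replicated list. Adcy9, known for its low response to forskolin, had 12.5 in pool I and 7.24 in pool J, with 9.85 in the replicated list. The 7.24 is the value at the replicated peak. Another pool J peak within 1000 bp of an Adcy9 start had 11.9, at the 82.3rd percentile of that list. Adcy3, the cyclase of olfactory signalling and of neuronal cilia, had 9.62 in pool I and 7.61 in pool J, with 8.66. Adcy5, the main cyclase of striatal neurons and inhibited by calcium, had 7.78 in pool I and 7.98 in pool J, with 7.86. Adcy5 was thus nearly level between the pools, where most members were higher in pool I.

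Adcy6, the close relative of Adcy5, changed with the choice of annotated starts. Under the basic annotation its promoter peak had a signal of 3.93 in pool I and 3.05 in pool J, with 2.71 in the replicated list, the lowest of all marked members. That peak ended 955 bp from the nearest start, just inside the 1000 bp limit. A stronger peak of 1021 bp at chr15:98609370-98610390 had 18.4 in pool I and 7.03 in pool J, with 14.0 in the replicated list, and was counted as distal. It covers the starts of 2 protein-coding Adcy6 transcripts that are in the full GENCODE set and not in the basic one, at positions 98610032 and 98610076 of chromosome 15. With protein-coding transcripts of the full set added, a choice made after seeing the data, Adcy6 moved to 14.0 and the 83.1st percentile, just above the 13.9 of Adcy1 and Adcy2. The full set added 32 starts at 17 members, and the highest promoter peak changed at 1 of them, Adcy6.

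Adcy4, Adcy7 and Adcy10 had no promoter peak in the replicated list. Adcy4, stimulated by beta-gamma subunits like Adcy2, had a peak of signal 4.5 in pool I, none in pool J, and 2.71 in the pseudoreplicated list of both pools. Adcy7, a cyclase prominent in blood cells, had none of its 4 start clusters marked. Adcy10, the soluble cyclase that bicarbonate activates, had no promoter peak but 3 distal peaks. For Adcy7, the nearest replicated peak lay 45246 bp from a start.

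The phosphodiesterase with the highest promoter signal in the replicated list was Pde7a, a cAMP-specific enzyme, with 14.0 in pool I and 10.1 in pool J, and 12.7 in the replicated list. Next came Pde4d, of the cAMP-specific group that rolipram inhibits, with 13.9 in pool I and 10.6 in pool J, and 12.4 in the replicated list. The other acetylated members of that group were Pde4a, with 12.9 in pool I and 9.28 in pool J, and Pde4b, with 10 in pool I and 9.28 in pool J. Pde4c, the fourth gene of the group, had no peak at either of its 2 start clusters in any list. Its nearest replicated peak lay 6928 bp from a start. Pde7a was first in neither pool, since Pde2a was highest in pool I with 14.1 and Pde8b in pool J with 10.8.

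Enzymes that break down both cAMP and cGMP ranged from high promoter signal to none. Pde2a, which cGMP stimulates, had 14.1 in pool I and 8.91 in pool J, with 11.1 in the replicated list. Pde10a, known for its abundance in striatal neurons, had 12.8 in pool I and 9.23 in pool J, with 11.2. The calmodulin-stimulated Pde1b and Pde1a had 9.36 and 8.39 in the replicated list. Pde1c, the third gene of the calmodulin group, had no peak at any of its 3 start clusters, and the nearest peak lay 135222 bp away. Pde11a had no promoter peak and no distal peak.

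The remaining phosphodiesterases reached at most the level of Pde10a in the replicated list. Pde8b and Pde8a, which are specific for cAMP, had 11.2 and 6.46 in the replicated list, and Pde7b, the relative of Pde7a, had 7.03. Pde9a and Pde5a, which act on cGMP, had 6.16 and 4.86. Pde3b, which cGMP inhibits and which is known from insulin signalling in fat, had 8.96 at a peak that it shares with the non-coding gene 4933406I18Rik. Its relative Pde3a, known from heart and platelets, had 2.87 at a peak of 365 bp that is in the replicated list alone and is shared with the non-coding gene Gm28523. Its −log10 q was 2.52, so the call at Pde3a is the weakest of the set.

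The photoreceptor enzymes were unmarked. Pde6a and Pde6b, the catalytic subunits of rods, and Pde6c, that of cones, had no promoter peak in any list. The nearest peak to Pde6b ended 1200 bp from its start, just outside the limit, with a signal of 5.06. Pde6d had a promoter signal of 7.09, with 8.59 in pool I and 6.04 in pool J. It encodes a carrier of prenylated proteins and not a catalytic subunit, and its peak also lies at the start of Cops7b. None of 8 photoreceptor marker genes had a promoter peak.

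Both catalytic subunits of PKA were marked. Prkacb, the beta subunit, had 15.9 in pool I and 9.41 in pool J, with 13.1 in the replicated list. Prkaca, the alpha subunit, had 7.16 in pool I and 8.72 in pool J, with 7.86, and its highest peak was narrow, with 563 bp. The order of the pools was thus opposite at the 2 genes.

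All 4 regulatory subunits were above the 60th percentile. Prkar1a, the ubiquitous type I subunit, had 13.1 in pool I and 18.7 in pool J, with 19 in the replicated list, the 95.2nd percentile and a width of 3499 bp. Prkar1b, the brain-enriched type I subunit, had 17.7 in pool I and 12.2 in pool J, with 14.6. Prkar2b, the type II subunit prominent in brain and fat, had 16.4 in pool I and 11.9 in pool J, with 13.6. Prkar2a, its more widespread relative, had 12 in pool I and 10.3 in pool J, with 10.2 and a width of 493 bp. Prkar1a is the gene with the full CRE printed first above.

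Creb1, the factor that PKA phosphorylates, had 21.5 in pool I and 16.1 in pool J, with 18.9 in the replicated list. Creb3, a membrane-bound factor of the endoplasmic reticulum, had 19.2 in pool I and 13.7 in pool J, with 16.6. The Creb3 peak also lies at the start of Tln1, so its signal cannot be given to Creb3 alone. Creb5, a CRE-binding relative of Atf2, had 5.73 in pool I and 5.57 in pool J, with 5.76. The highest peak of Creb5 lay at the last of its 4 start clusters.

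The coactivators move into the nucleus when dephosphorylated and bind CREB. Crtc3 had 9.82 in pool I and 8.72 in pool J, with 9.06 in the replicated list. Crtc2, best known from glucose production in the liver, had 9.80 in pool I and 7.5 in pool J, with 8.25. Crtc1, the form enriched in brain, had 6.97 in pool I and 5.07 in pool J, with 5.98, the lowest of the 3. Its percentile was 25.4.

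Width and summit position were also described. The highest promoter peaks of the members had a median width of 1600 bp, against 1138 bp over coding genes. A width of 2000 bp or more was found at 9 of 35 members, against 18.3% of coding genes with a promoter peak. The widest were those of Adcy8, Prkar1a and Pde7b, the last with 3093 bp in the replicated list, 3087 bp in pool I and 1545 bp in pool J. Summits lay downstream of the nearest start at 23 members and upstream at 12, and over coding genes 66.8% lay downstream. The median position was 160 bp downstream in members and 128 bp over coding genes. At 5 of the 35 members the highest peak also lay at another gene, against 31.8% of coding genes with a promoter peak. At 2 of them, Creb3 and Pde6d, the neighbour was a coding gene, against 19.7%.

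Signal in pool I was above that in pool J at most members, as it was at most coding genes. The median ratio was 1.36 over the 34 members matched in both lists, against 1.40 over 11813 coding promoters, whose quartiles were 1.22 and 1.60. The ratio at the replicated peak was under 1 at 3 of 34 members, against 7.80% of coding promoters. These were Adcy5 with 0.975, Prkaca with 0.821 and Prkar1a with 0.70. Prkar1a lay at the 0.504th percentile of ratios and Prkaca at the 1.93rd, below 0.932, under which 5% of coding promoters lie. At the other end, Adcy8 with 1.94 and Pde7b with 1.90 stayed under 1.98, above which 5% lie. Over the 34 members the signal in pool I and pool J had a Spearman rho of 0.85, a description across genes that share the same lists. The normalization and depth behind the pool lists are unknown, and with a single list for each pool the differences have no error.

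**Figure D2:**
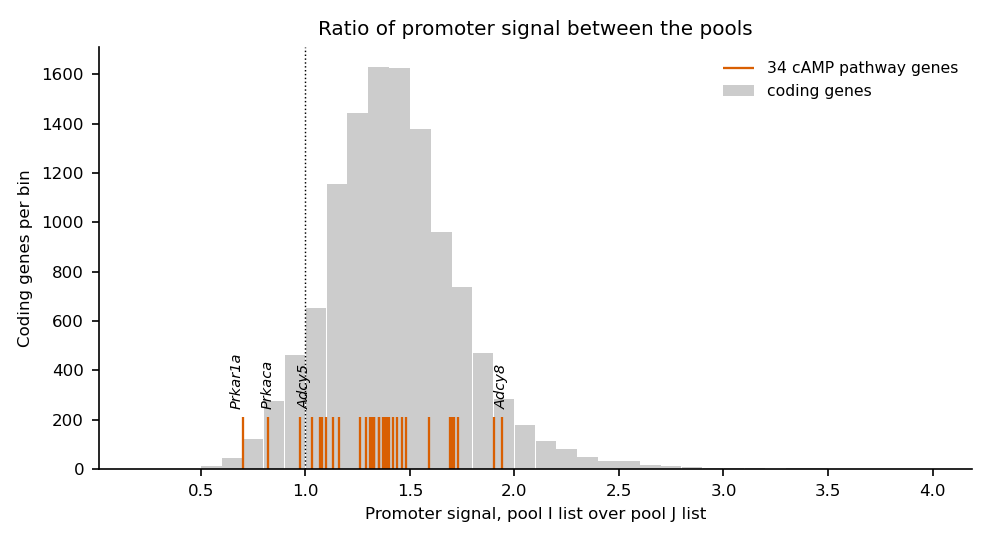
Promoter signal in the pool I list divided by that in the pool J list, for 34 cAMP pathway genes (vertical lines) and as a histogram of coding genes matched in both lists (grey bars, genes in each bin of 0.1). The dotted line marks equal signal, and Prkar1a, Prkaca and Adcy5 lie left of it at 0.70, 0.821 and 0.975, with Adcy8 at 1.94 on the right.

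Many of these genes have several annotated promoters. Starts no more than 1000 bp apart were treated as a cluster, which gave 87 clusters at the 44 members, and 56 were marked by a peak, against 51.6% of clusters of coding genes. Of the 44, 20 have more than 1 cluster, and 38 of their 63 clusters were marked (60.3%), against 38.3% of the clusters of such coding genes. Of the 56 marked clusters, 52 had a peak in both pool lists. That count was not made over the clusters of all coding genes, so it shows nothing particular to the members. A marked cluster besides that under the highest peak was found at 11 of the 17 members with a promoter peak and more than 1 cluster, against 33.4% of such coding genes. These were Pde1b, Pde2a, Pde4a, Pde4b, Pde4d, Pde7b, Pde8b, Pde10a, Prkacb, Prkar1b and Creb5.

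**Figure D3:**
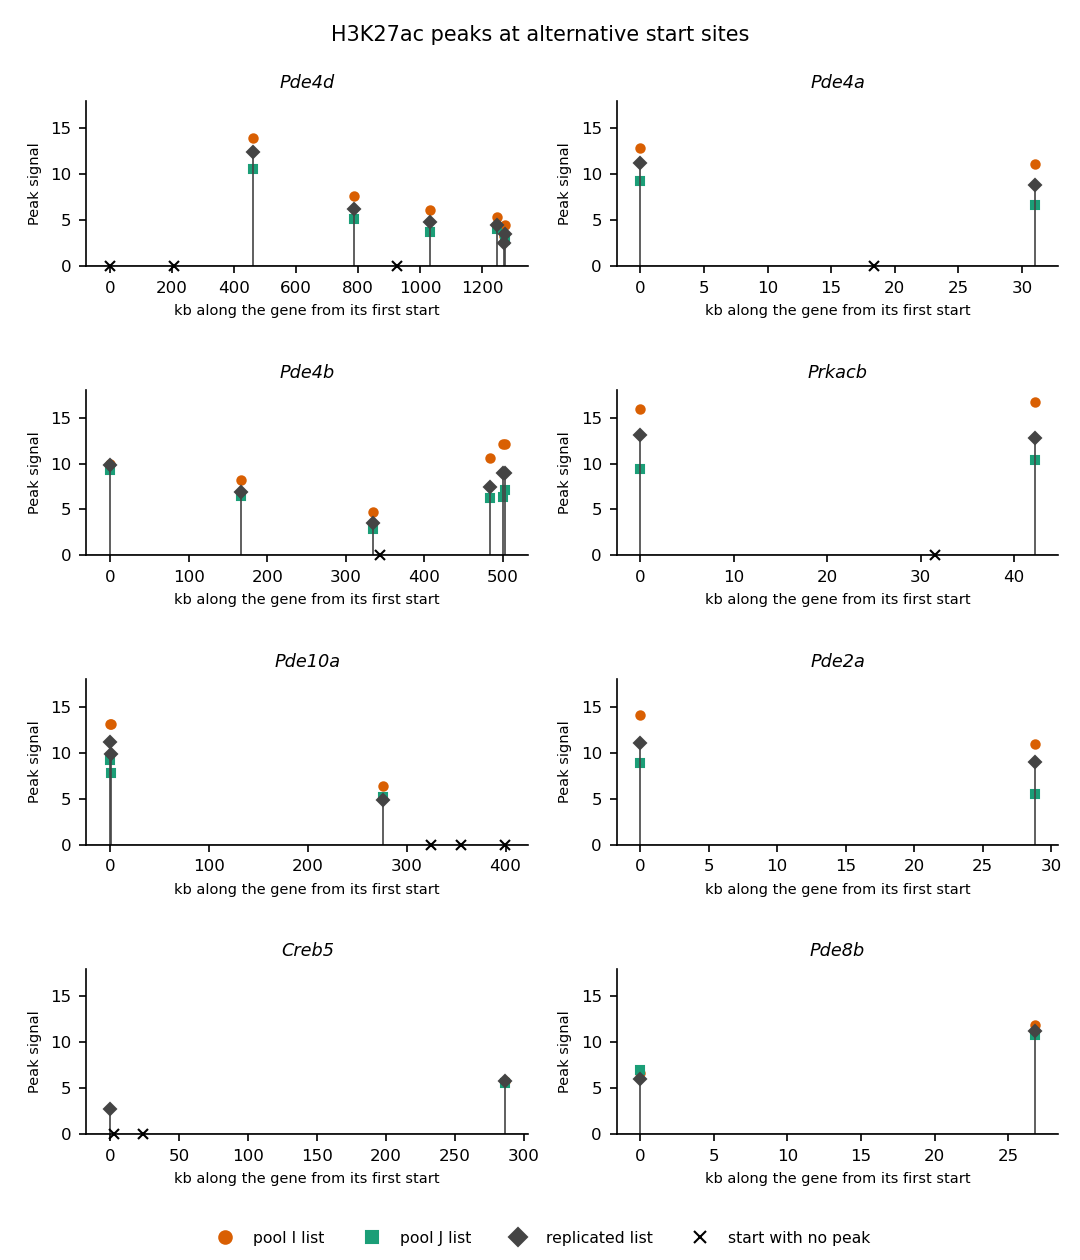
Peak signal (vertical axis) at each cluster of annotated starts of 8 genes, by distance along the gene from its first start in kb. Circles, squares and diamonds are the highest peak at that cluster in the pool I, pool J and replicated lists, and crosses are clusters with no replicated peak. Pde4d and Pde4b each have 6 marked clusters, spread over the length of the gene, while Creb5 has its strongest at the last.

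Pde4d and Pde4b, whose start sites give rise to long and short enzyme forms, had the most marked clusters, 6 each. Pde4d has 9 clusters over 1273 kb, and its highest signal lay 462 kb from the first, with 13.9 in pool I and 10.6 in pool J, and 12.4 in the replicated list. The further marked clusters had lower signal, with 6.23 at 788 kb, 4.81 at 1032 kb, 4.47 at 1249 kb, 2.57 at 1271 kb and 3.55 at 1273 kb. The peak at 1271 kb had no match in the pool J list. The clusters at 0, 206 and 927 kb were unmarked, so the first 2 Pde4d starts of the basic annotation had no peak. The gene itself begins upstream of these, at position 108449948 of chromosome 13, and the first basic start is at 108654177. With the 5′ end of the gene as the only start, Pde4d kept a promoter peak.

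Pde4b differed in that its first start was the highest. It has 7 clusters, with a replicated signal of 9.85 at the first, 6.86 at 167 kb, 3.48 at 334 kb, 7.46 at 483 kb and 9.0 at 500 and 502 kb. The last 2 share a peak of 6282 bp in the replicated list, 6444 bp in pool I and 3794 bp at the strongest overlapping peak of pool J. By width that peak ranked 175th of the 72027 replicated peaks. The cluster at 343 kb was unmarked. In pool I the signal was higher at 500 kb than at the first start, with 12.1 and 10, and in pool J it was lower, with 6.31 and 9.28.

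Wide peaks at later starts were also seen at Pde2a and Prkacb. At Pde2a the start of the basic annotation at 28.8 kb lay at the edge of a peak of 11345 bp with a signal of 9.04 in the replicated list, where it ranked 14th by width. RefSeq windows of further Pde2a starts lie inside this peak, at chr7:101450766-101451065, 101451002-101451301 and 101455812-101456111. In pool I the peak spanned 13354 bp, with a signal of 11. In pool J it was split, with 5.48 at the peak of 3988 bp next to the start and 7.24 at the widest piece, of 4601 bp. The narrower peak at the first Pde2a start was higher in each of these lists. At Prkacb the cluster at 42.2 kb lay under a peak of 5379 bp, with 16.7 in pool I and 10.4 in pool J, and 12.8 in the replicated list. The first Prkacb start had 15.9 in pool I and 9.41 in pool J, with 13.1, so the later cluster was higher in both pool lists and lower in the replicated one. The cluster between them, at 31.5 kb, was unmarked. The wide peak of Prkacb ranked 317th by width.

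In the replicated list the first cluster was the highest at Pde10a, Pde4a, Pde7b and Pde1b, and a later one at Pde8b. Pde10a had 11.2 at its first start, 9.85 at 1.43 kb and 4.86 at 276 kb, and its clusters at 325, 355 and 399 kb were unmarked. Pde8b had 11.2 at its second cluster, 26.8 kb in, and 6.04 at its first. Pde4a had 11.2 at its first and 8.86 at its last, at 31.0 kb, with an unmarked cluster between. Pde7b had 7.03 at its first and 6.26 at 177 kb, and Pde1b 9.36 at its first and 5.14 at 11.9 kb. For Prkar1b the second cluster had a signal of 2.97 and for Creb5 the first had 2.67, and neither peak was in a pool list. Upstream of the Prkar1b clusters of the basic annotation, the RefSeq window at chr5:139149952-139150251 lay under a peak of signal 5.62. That peak was counted neither as a promoter peak nor as a distal peak of Prkar1b, so it need not be that of Prkar1b. The adjoining domain of distal peaks has Dnaaf5 as another neighbour. The Prkar1b window at chr5:139150654-139150953 lay under no peak. Both clusters of Prkar1a lay at the same peak. The second clusters of Pde1a, Pde7a, Pde9a, Prkaca and Adcy6 were unmarked.

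Away from promoters, 296 replicated peaks were given to the members, each to the coding gene with the nearest start within 100 kb, an assignment by distance that says nothing of the target. At least 1 such peak was found at 35 of 44 members, against 39.6% of coding genes. The mean was 6.73 peaks for each member, against 1.85 for each coding gene, and the median 3 against 0. Members also have much sequence nearest to their starts, here called the territory. Per 100 kb of territory the count was 4.06 in members and 2.63 in coding genes. The 44 genes would have 136 distal peaks if each had the mean of coding genes in the same decile of territory. Of the members, 27 lay above that mean and 17 at or below it. The share of coding genes above the mean of their own decile is not given here. Counts over coding genes are skewed, with a mean of 1.85 and a median of 0, so the 27 has no background. The match by territory is loose for the largest territories. The top decile, with a median of 200 kb, holds 12 members, among them Pde4d with 1268 kb and Pde4b with 637 kb. The 136 is thus likely too low, and the rate per 100 kb is the closer comparison. Over the 44 members the count had a Spearman rho of 0.52 with territory and 0.54 with promoter signal, as a description across genes of the same list.

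**Figure D4:**
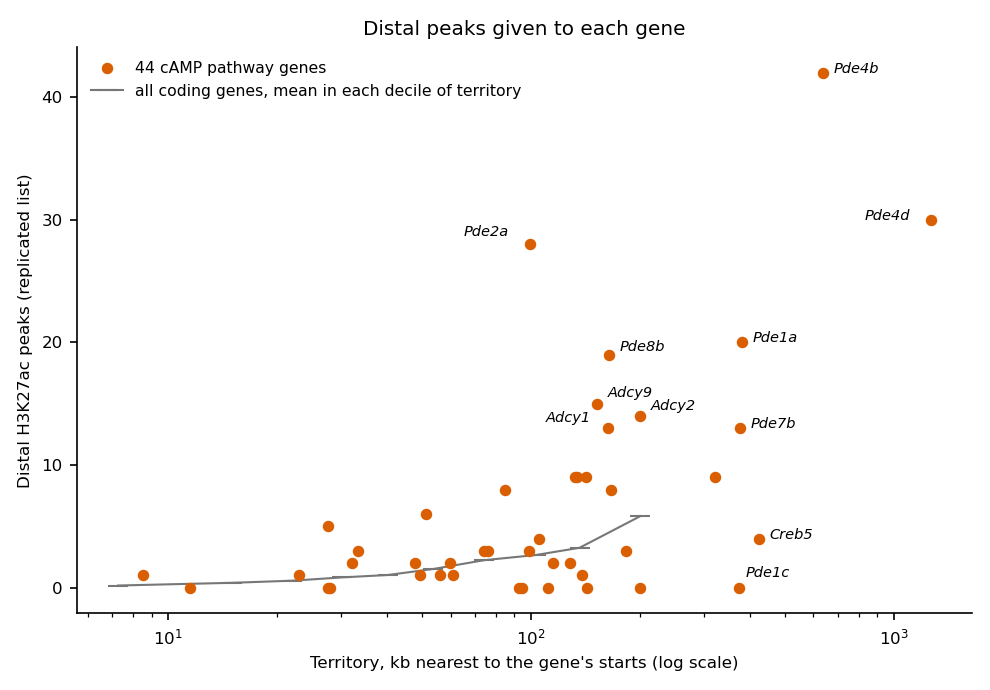
Number of distal peaks in the replicated list (vertical axis) against territory, the kb within 100 kb that lie nearest to a gene's starts (log scale). Points are the 44 cAMP pathway genes, and the line joins the mean of all coding genes in each decile of territory, drawn at its median. Pde2a stands out with 28 peaks in 99.6 kb, Pde4b has the most with 42, and Pde1c has none in 375 kb.

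Of the 296 peaks, 214 lay in introns of the member, 3 in exons and 79 outside it. The share in the gene body was 73.3%, against 58.1% of the 40240 distal peaks given to any coding gene. In signal and width they were close to the rest, with a median signal of 3.33 against 3.37 and a median width of 558 bp against 528 bp. A peak in both pool lists was found for 46.6% of them, against 46.8%. Fewer than 50% of the members' distal peaks were thus matched in both pools, as over the distal peaks of all coding genes.

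The phosphodiesterases held most of them, 184, against 61 at cyclases, 18 at CREB factors, 16 at coactivators, 12 at regulatory and 5 at catalytic PKA subunits. Relative to territory the order differed, with 8.25 per 100 kb at coactivators, 5.72 at cyclases, 3.91 at catalytic subunits, 3.69 at phosphodiesterases, 3.64 at regulatory subunits and 3.03 at CREB factors. Pde4b with 42, Pde4d with 30 and Pde2a with 28 held 100 in all, 33.8% of the total. All 42 of Pde4b lay in its introns. Pde1a had 20, Pde8b 19, Adcy9 15 and Adcy2 14. No distal peak was given to Adcy4, Adcy7, Pde1c, Pde3a, Pde3b, Pde4c, Pde6a, Pde6d or Pde11a. Of these 9, Pde3a, Pde3b and Pde6d had a promoter peak.

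The strongest distal peaks lay at few members. After the Adcy6 peak of signal 14.0 described above came 2 peaks upstream of Pde10a. The nearer, 16.6 kb before a start and 4128 bp wide, had 15.5 in pool I and 10.6 in pool J, with 13.0 in the replicated list. The farther, 37.0 kb before a start, had 14.7 in pool I and 9.60 in pool J, with 12.4. Both exceed the promoter signal of Pde10a itself, 11.2, and only 0.396% and 0.486% of distal peaks were stronger. Pde10a is known from the striatum, and of the striatal marker genes reported here Drd1, Adora2a, Rgs9 and Ppp1r1b had a promoter peak, at percentiles from 5.76 to 38.7, while Drd2, Penk and Tac1 had none. The part of striatal cells in these Pde10a peaks was not tested.

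Pde2a had the densest distal acetylation, with 28.1 peaks per 100 kb. Replicated peaks covered 41.0% of the gene body, or 37.3 kb, with 47.8% covered in pool I and 27.7% in pool J. Among the 5000 coding genes of 50 kb or longer it ranked 36th by this share, and the median of the 33 members of that length was 3.01%, against 1.95% over all. Among those 33 members Pde8b followed with 15.2%. A replicated peak of 2.65 in signal within an intron of Pde2a holds the only full CRE found within 100 bp of the summit of a members' distal peak. It has a −log10 q of 1.82 and no match in either pool list. The bases within 100 bp of that summit are shown here with the CRE and an E-box in capitals, on the plus strand of mm10.
Pde2a distal peak, chr7:101510724-101510924: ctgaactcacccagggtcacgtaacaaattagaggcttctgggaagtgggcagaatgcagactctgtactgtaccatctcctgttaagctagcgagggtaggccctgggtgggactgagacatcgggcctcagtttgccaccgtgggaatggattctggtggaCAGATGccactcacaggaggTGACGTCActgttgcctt

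**Figure D5:**
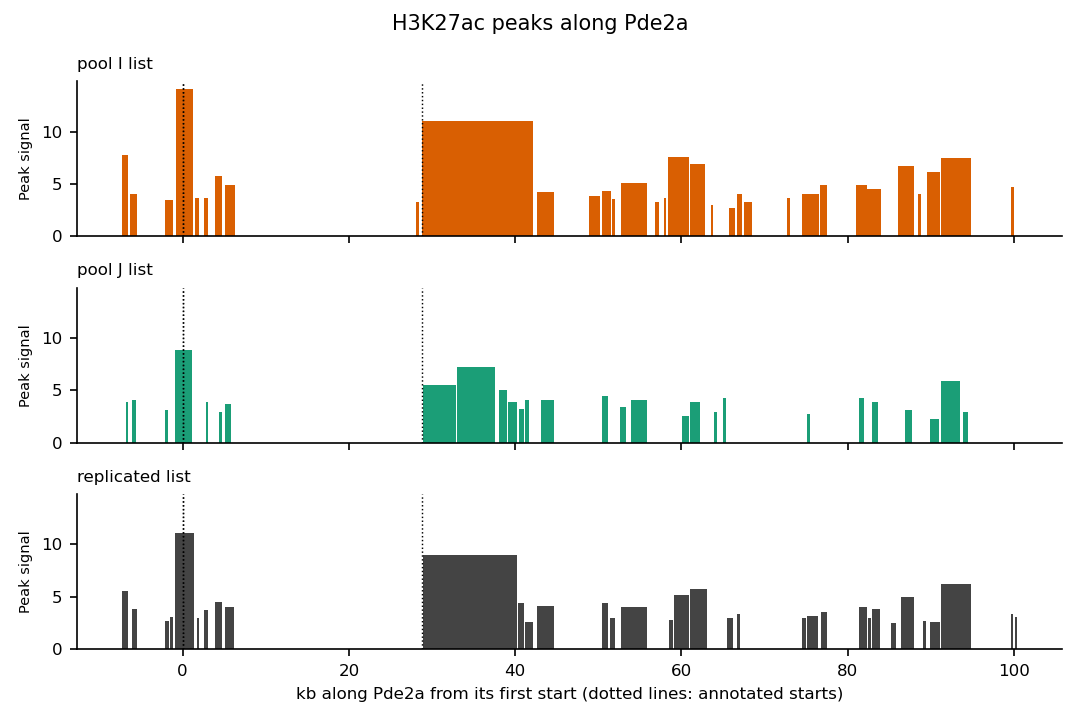
Peaks along Pde2a by distance from its first start in kb, drawn to their true width, with signal as height, in the pool I, pool J and replicated lists. Dotted lines are starts of the basic annotation, and further RefSeq starts within the wide peak are not drawn. The peak that begins at the start at 28.8 kb is 11345 bp wide in the replicated list, and is split into narrower peaks in the pool J list, where the widest peak of the gene has 4601 bp.

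Other letters near the summits of the members' distal peaks, searched on both strands, were counted beside those of all distal peaks. The AP-1 letters TGANTCA lay within 100 bp of 18 of 296 summits (6.08%), against 5.93% of all 52300 distal peaks. The E-box CAGATG lay at 61 (20.6%), against 17.2%. The full CRE lay at 1 (0.338%), against 0.140%, and the letters CTATTTATA, known from MEF2 sites, also at 1 (0.338%), against 0.207%. With a single match, the last 2 shares say little.

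Neighbouring distal peaks were joined into domains and ranked by signal times width. Of the 18503 domains, 497 were called large, as they lie on the steep end of the ranked curve, where its slope on scaled axes exceeds 1. A distal peak in a large domain was found at 3 of 44 members, against 2.90% of coding genes. The domain of Pde2a ranked 180th, spanned 60.1 kb and held 24 peaks, of which 22 were given to Pde2a. That of Adcy9 ranked 279th and spanned 65.4 kb, and 10 of its 19 peaks were given to Adcy9, with Srl as another neighbour. The domain of Pde8b ranked 294th and spanned 60.0 kb, and 6 of its 23 peaks were given to Pde8b, the rest lying within the gene but beyond 100 kb of any coding start. The next highest domains, of Pde10a and Crtc1, ranked 520th and 644th.

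Genes that act before and after these enzymes were taken from lists chosen by textbook role, and their counts stand against the same 58.5% of coding genes. All 7 alpha subunits of G proteins that act on cyclases were marked, with Gnao1 at 13.9, Gnai3 at 13.3 and Gnas, the stimulatory subunit, at 11.5. Of 18 receptors coupled to the stimulatory G protein, 14 were marked. The highest were Adcyap1r1, the PACAP receptor, with 13.9, Adrb1, the beta-1 adrenergic receptor, with 13.3, and the orphan receptor Gpr12 with 11.8. Drd5, Vipr2, Ptger2 and Ptger4 had no peak. The marked receptors had a median percentile of 28.5, against 48.6 for the marked cyclases and 52.5 for the marked phosphodiesterases.

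Regulators of PKA and other targets of cAMP were marked unevenly. The PKA inhibitor Pkia had 22.3, above every member, and with Pkig at 9.98, Prkx at 6.96 and Pkib all 4 of that list were marked. Of 14 anchors that tether PKA, 11 were marked, led by Akap11 with 19.7, Akap10 with 16.4 and Akap8 with 14.6, while Akap3, Akap4 and Akap14 had none. Of 15 other effectors 6 were marked, led by the exchange factors Rapgef3 with 11.5 and Rapgef4 with 10.9 and the channel Hcn2 with 8.30. Hcn4, Cnga1, Cnga2, Cnga4, Cngb1, Cngb3, Popdc2, Popdc3 and Bves had none in the replicated list, though Hcn4 had a peak in each pool list. A further list held 6 genes outside the symbol rule with names or roles near the phosphodiesterases, not all of them enzymes that break down cAMP. Of these, 4 were marked, led by Pde4dip with 15.8, Pde12 with 12.3 and Cnp with 7.01. Pde4dip encodes a protein that binds Pde4d and is no phosphodiesterase. The photoreceptor subunits Pde6g and Pde6h were unmarked.

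At the transcriptional end, 12 of 15 CREB relatives and partners were marked, with a median percentile of 88.8. The highest were Atf4 with 30.7, the acetyltransferase Ep300 with 26.3 and the kinase Sik3 with 19.8, and Creb3l1, Creb3l3 and Creb3l4 had none. Of 16 textbook CREB targets 13 were marked, led by Per1 with 19.6, Crem with 19.5 and Junb with 18.7. Sst, Pdyn and Crh, each a neuropeptide gene, had none. Crem and Sik1 are in both lists. Among the genes named with a signal in the pathway lists, the peaks of Gnao1, Rapgef3, Pde12, Ep300 and Crem also lie at another gene. The signal there need not be that of the named gene alone.

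The labelled tissue was checked with marker genes. All 8 markers of excitatory neurons had a promoter peak, at a median percentile of 77.4, with Emx1 at 6.37 the lowest. Of interneuron markers 3 of 7 did, Gad1, Gad2 and Slc32a1, and Lhx6, Sst, Pvalb and Vip did not. The counts were 5 of 6 for astrocytes, 4 of 6 for oligodendrocytes, 4 of 6 for microglia, 6 of 6 for endothelial cells, 2 of 6 for mural cells and 0 of 5 for the choroid plexus. The median percentile of the marked genes was lower than in excitatory neurons for each of these lists that had any, with 5.20 for interneurons, 17.0 for astrocytes, 21.5 for oligodendrocytes, 10 for microglia, 4.65 for endothelial cells and 35.9 for mural cells. Which cell types carry the peaks of the members was not tested.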

How the data were processed

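H3K27ac ChIP-seq of 4 libraries in 2 pools was analysed from 4 peak lists on mm10. Per the file descriptions of the samples, the authors made a replicated and a pseudoreplicated list from both pools and a pseudoreplicated list from each pool. The aligner and its version were not given in the sources used here, nor the peak caller and the input. The signal of each peak, its −log10 q and its summit are the authors' deposited values, with a normalization that is not stated. They served to rank, filter and describe peaks of the same list. The lists hold no read numbers, so depth is unknown and no counting interval was made. Reads of CAST/EiJ alleles differ from the reference at strain variants, and their treatment is not given.

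Genes and starts came from GENCODE vM21 basic (34568 genes and 55728 starts on 19 autosomes and X). A promoter peak overlapped 1000 bp on either side of a start, counted for every gene there, and the highest gave a gene its value. Other peaks went by summit to the nearest coding start within 100 kb. Pool values are from peaks overlapping the replicated peak by at least 1 bp. Those of start clusters are from the highest pool peak within 1000 bp of a start. Percentiles are among coding genes with a promoter peak of the same list. Scripts in Python 3 with numpy and pandas were tested on simulated peaks. No significance test was run, since the 4 samples form 1 group. All members are named, and values in full go to the extremes of signal, width, pool ratio, distal peaks and marked clusters and to those without a peak. The members and lists were chosen with earlier results of these data known. The values of some marker genes are not reported here. Alternatives were the other peak lists, a −log10 q of at least 5, windows of 500 and 2500 bp, the 5′ end of the gene alone, other distances and overlaps, and, added after seeing the data, starts of the full annotation.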

Additional observations from a re-analysis of the deposited data

How the results depend on the processing

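Of 54 recomputed values, 40 stayed within the spread between the pools or within 1.5 times the main count, and 14 did not. The number of members with a promoter peak was 33 to 36 under every alternative run. It lost Adcy6 with a window of 500 bp, Adcy6 and Pde3a at a −log10 q of at least 5 and Prkar2a with the 5′ end alone, and gained Pde6b with a window of 2500 bp. The median percentile of promoter signal, 54.1 in the replicated list, was 59.3 to 60.0 with a single pool, 55.4 at a −log10 q of at least 5, 56.0 and 56.2 with windows of 500 and 2500 bp, 50.5 with the 5′ end alone and 57.9 with starts of the full annotation, which changed Adcy6 alone among the highest peaks. The median width was 1544 to 1588 bp with a single pool and 1399 bp with the 5′ end alone. Marked clusters were 34 with the 5′ end alone, which leaves 1 start for each gene, so that no other marked cluster could be counted there. Distal peaks were 170 to 273 with a single pool and 111 at a −log10 q of at least 5. Members sharing their highest peak were 2 with coding neighbours alone. Members with a half-site were 27 in the larger window of 1000 bp on either side of the start. Half-sites in that larger window were not counted over coding genes, so the 27 has no background. The causes of the other shifts were not tested. No paired analysis was possible because the samples form 1 group, each pool has a single list and no result comes from a test. With depth unknown, a peak missing from the pool J list cannot be told from a peak below its detection.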
